A study of Mus musculus with 2 samples.

Results

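The mitosis, spindle and kinetochore genes are 40 named genes whose products carry a cell from mitotic entry to cytokinesis. They were chosen by symbol and by role with earlier results of these data known, and 39 of the 40 have a row in the table of 20002 genes. Kif15, which encodes a spindle kinesin, was not analysed here. The RNA sequencing compared whole kidneys of mice given AAV9 that carried a short hairpin RNA against Regnase-2, labelled CKO, with kidneys of mice given a control AAV9, labelled Control. Each group was represented by 1 library, so no test between the groups could be made and no paired analysis was possible. The mice were of the C57BL/6J background, and none received a further treatment. Injection took place at 11 weeks of age through the tail vein, and the kidneys for RNA sequencing came from mice of 14 weeks, although the injection methods give harvest at 16 weeks. One methods section describes the control vector as empty and another as a control hairpin. The labels call the CKO mice conditional knockouts of the proximal tubule, but the methods describe a knockdown with a virus that prefers proximal tubules. The RNA was taken from left kidney tissue according to the methods, which do not state the number of mice behind each library.

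Mitosis depends on genes that are switched on together late in the cell cycle. Cdk1 with its cyclins starts mitosis, kinetochores tie the chromosomes to the spindle, and the spindle checkpoint holds back the anaphase-promoting complex until every chromosome is attached. The complex then releases the sister chromatids and destroys the mitotic cyclins, and a contractile ring divides the cell. The healthy adult kidney holds few dividing cells, and tubule cells are known to re-enter the cell cycle after injury.

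The deposited values are whole numbers that the authors call normalized counts, and the smallest of them is 35 for Control and 51 for CKO. They were taken as reads plus a constant of 34 and 50, which was subtracted from each column. This reading of the columns is inferred from the values and is not stated by the authors. After subtraction the Control library held 38851231 reads and the CKO library 43588721. To compare the libraries, CKO reads were scaled by 0.667, which is the median Control to CKO ratio of all genes, and log2 ratios of CKO over Control were taken with a pseudocount of 1. Read numbers below are given before this scaling, and folds and log2 ratios after it. Brackets of values named intervals are 95% Clopper-Pearson intervals of the fold and cover counting error only, not the difference between animals. Zc3h12b, the Regnase-2 gene, had 47 Control and 59 CKO reads, a fold of 0.837 with an interval from 0.561 to 1.26, so its mRNA does not check the labels at this depth.

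Each of the 39 genes had more scaled reads in the CKO than in the Control library, beside 51.5% of the genes kept by the filter below. Of these, 32 were at least 2-fold higher and 0 were at least 2-fold lower. Over all 17469 genes that reached 10 scaled reads in either library, 13.4% were higher and 5.35% lower by this measure. The median log2 ratio of the 39 genes was 2.003, beside 0.02 for all genes that passed this filter. All 39 passed, but 5 of them, Bub1, Aurkb, Ndc80, Nuf2 and Kif2c, had fewer than 10 Control reads and passed only through the CKO library, so they had to be high there to be counted. Among the other 34, 27 were at least 2-fold higher and the median log2 ratio was 1.73, beside 10.4% and -0.01 for all genes with 10 Control reads or more, a restriction chosen after the values were seen. The interval lay wholly above 1-fold for 39 genes, beside 34.7% of all genes that passed the filter, and wholly above 2-fold for 26, beside 7.3%. Among the 34 genes the latter count was 21, beside 6.39% of all genes with 10 Control reads or more. Together the genes held 3318 Control and 11862 CKO reads, or 85.4 and 272 CPM, counts scaled to the library's total. The summed level was therefore higher in the CKO library, by 2.38-fold after scaling, with an interval from 2.29 to 2.48. Bub3 alone gave 1270 of the Control reads, and without it, an alternative chosen after the values were seen, the sum was 3.19-fold higher. In whole tissue, a larger share of dividing cells and more of these mRNAs in each cell cannot be told apart.

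**Figure D1:**
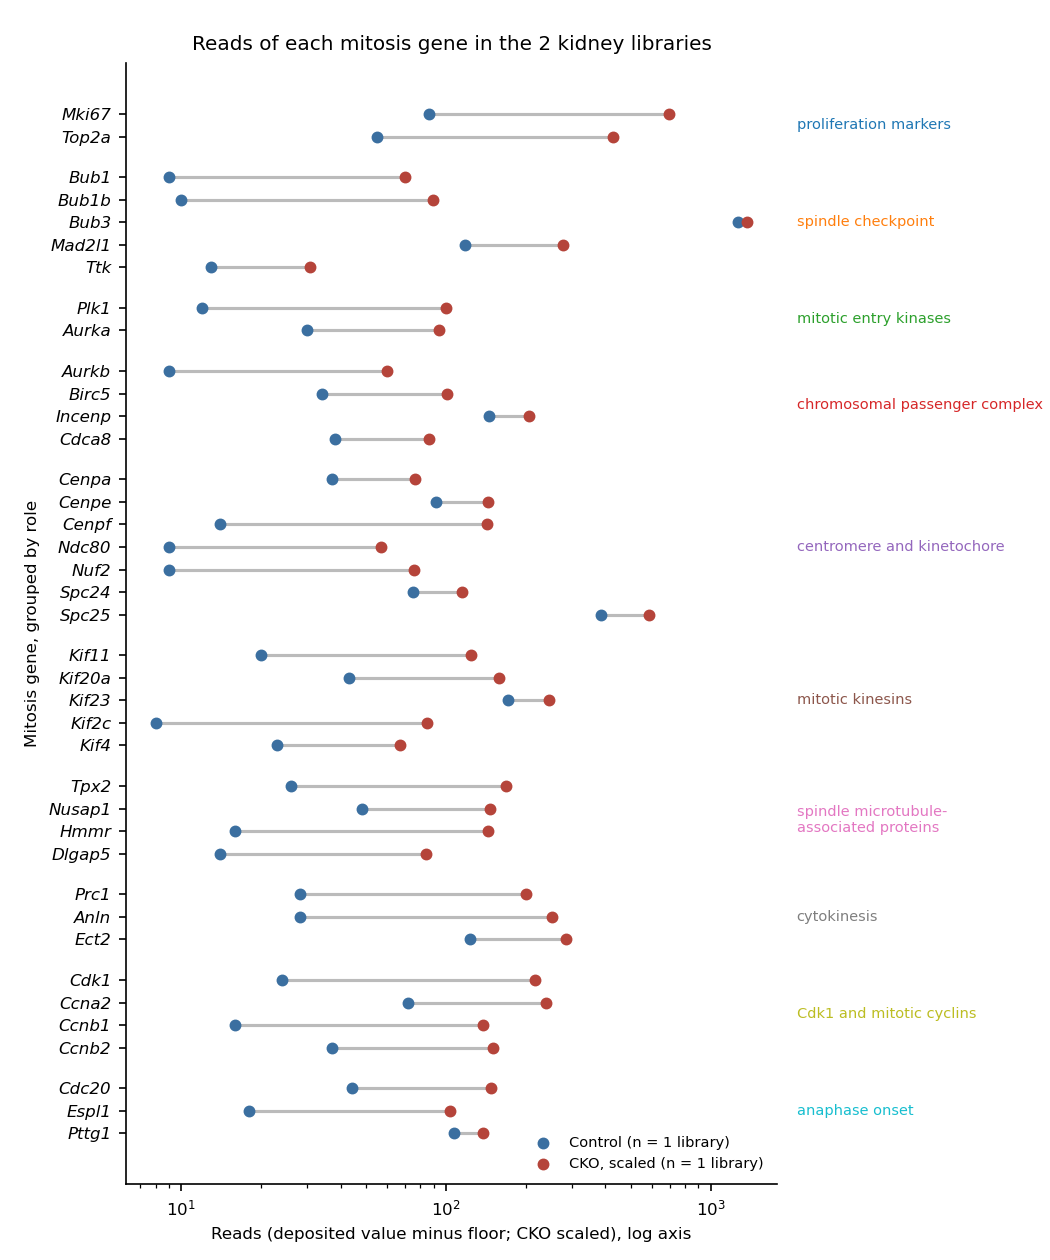
Reads of the 39 mitosis genes in the Control library (blue) and, after scaling, in the CKO library (red), on a log axis and grouped by role; each point is 1 library. Every red point lies to the right of its blue point, with the shortest line for Bub3 (1270 Control reads) and long lines for Cenpf (14 Control reads) and Mki67 (86 Control reads).

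RefSeq promoter windows of GRCm38.p6, from 250 bases before to 50 bases after an annotated start, were matched by symbol for 33 of the 40 genes. They were searched on both strands for CCAAT, the box bound by NF-Y, and for TTTGAA, the cell cycle genes homology region known from promoters of late cell cycle genes. A match of one can share no more than 1 end base with a match of the other. Of the 32 matched genes with reads, 24 held CCAAT and 24 held TTTGAA in at least 1 window, and 21 held both in the same window. Counted in the same way over the 12724 matched genes that passed the filter, 42.4% held CCAAT, 15.2% held TTTGAA and 6.19% held both. Both motifs stood in 18 of the 27 genes that were at least 2-fold higher and in 3 of the 5 that were not, so the windows of genes with small and large ratios shared them. A match describes the letters of a window and is not a binding site. Shown in the direction of transcription are the windows of Mki67, Bub3 and Spc25, the genes of different roles with the most CKO reads, of Pttg1, which with Bub3 changed least, and of Cenpf, which had the highest log2 ratio at the pseudocount used and was chosen after its value was seen. Capitals mark both motifs on either strand.
Mki67: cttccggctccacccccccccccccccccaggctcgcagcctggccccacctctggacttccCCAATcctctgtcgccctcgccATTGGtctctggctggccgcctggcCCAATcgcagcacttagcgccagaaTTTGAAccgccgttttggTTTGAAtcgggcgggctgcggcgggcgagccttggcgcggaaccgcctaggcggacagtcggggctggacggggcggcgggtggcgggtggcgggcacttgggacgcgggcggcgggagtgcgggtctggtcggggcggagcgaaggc
Bub3: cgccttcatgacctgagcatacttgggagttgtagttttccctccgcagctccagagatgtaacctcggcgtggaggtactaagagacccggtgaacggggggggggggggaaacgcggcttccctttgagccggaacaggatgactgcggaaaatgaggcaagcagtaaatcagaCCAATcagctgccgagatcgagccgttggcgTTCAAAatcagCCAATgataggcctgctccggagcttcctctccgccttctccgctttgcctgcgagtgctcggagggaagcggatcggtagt
Spc25: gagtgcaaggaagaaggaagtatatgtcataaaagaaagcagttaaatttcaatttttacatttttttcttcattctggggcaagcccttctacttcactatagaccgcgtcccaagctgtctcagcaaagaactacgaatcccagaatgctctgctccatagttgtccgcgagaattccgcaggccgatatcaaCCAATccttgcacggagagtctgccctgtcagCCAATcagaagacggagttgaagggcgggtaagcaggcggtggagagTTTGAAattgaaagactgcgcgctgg
Pttg1: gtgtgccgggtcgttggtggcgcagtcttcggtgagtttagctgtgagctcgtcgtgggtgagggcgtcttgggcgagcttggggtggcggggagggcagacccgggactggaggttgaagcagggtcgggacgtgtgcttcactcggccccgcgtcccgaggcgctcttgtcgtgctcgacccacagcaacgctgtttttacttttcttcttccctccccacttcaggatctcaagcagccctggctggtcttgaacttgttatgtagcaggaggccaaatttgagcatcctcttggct
Cenpf: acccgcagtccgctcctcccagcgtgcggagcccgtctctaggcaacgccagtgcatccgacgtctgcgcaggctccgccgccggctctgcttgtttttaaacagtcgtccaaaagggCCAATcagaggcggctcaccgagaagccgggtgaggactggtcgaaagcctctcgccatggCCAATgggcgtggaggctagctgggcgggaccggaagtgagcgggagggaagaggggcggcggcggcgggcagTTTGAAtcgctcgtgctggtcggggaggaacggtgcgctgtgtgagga
These windows lie at chr7:135716330-135716629, chr7:131560120-131560419, chr2:69206164-69206463, chr11:43425932-43426231 and chr1:189688037-189688336; that of Bub3 is on the plus strand and the others are on the minus strand. In Mki67, TTTGAA began at positions -116 and -98 from the start site, and in Spc25 and Cenpf it began at positions 24 and 2, within the transcript. The marked motifs of Bub3 all lie upstream of the RefSeq start but inside the gene as GENCODE annotates it. The Pttg1 window held neither motif, but it lies wholly inside its GENCODE gene, downstream of the start given there.

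Mki67 and Top2a are the usual markers of proliferating cells. Mki67, which encodes the Ki-67 protein that coats mitotic chromosomes, lies on chromosome 7 from 135689784 to 135716361. It counted 86 Control and 1041 CKO reads, an 8.07-fold difference with an interval from 6.47 to 10.2. Top2a, whose topoisomerase untangles sister chromatids, had 55 and 641 reads and was 7.77-fold higher, with an interval from 5.89 to 10.4. Both markers were thus high in the CKO library, by folds whose intervals overlap.

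Cdk1, the kinase that drives mitosis, had 24 Control and 327 CKO reads and was 9.08-fold higher. Its partner Ccnb1 had 16 and 207 reads, an 8.62-fold difference with an interval from 5.19 to 15.4. Ccnb2, the other B-type cyclin, had 37 and 227 reads and was 4.09-fold higher, with an interval from 2.88 to 5.96 that overlaps that of Ccnb1. Ccna2, a cyclin that acts already in S phase, had 72 and 360 reads and a fold of 3.33, with an interval from 2.58 to 4.36 that lies below that of Ccnb1. All 4 genes were high in the CKO library, and the cyclin with the most Control reads had the smallest fold.

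Plk1 and Aurka encode kinases that promote mitotic entry and centrosome maturation. Plk1 had 12 Control and 150 CKO reads and was 8.33-fold higher, with an interval from 4.63 to 16.5. Aurka had 30 and 141 reads and was 3.13-fold higher, with an interval from 2.10 to 4.82. Both were higher in the CKO library, and their intervals overlap by little.

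The 5 spindle checkpoint genes split widely. Bub1b, which encodes the checkpoint protein BubR1, had 10 Control and 134 CKO reads and was 8.93-fold higher, with an interval from 4.71 to 19.1. Bub1, a kinetochore kinase, had 9 and 105 reads and a fold of 7.78. Bub3, whose protein binds both of these at the kinetochore, had 1270 and 2068 reads, a fold of 1.09 with an interval from 1.01 to 1.17. Bub3 was thus nearly level between the libraries while Bub1b, which had 10 reads or more in both, was high in the CKO library, with intervals that do not overlap. Bub1 passed the filter only through the CKO library. Mad2l1, the inhibitor that the checkpoint loads onto Cdc20, had 118 and 414 reads and was 2.34-fold higher. Ttk, the kinase that starts checkpoint signalling, had 13 and 46 reads and a fold of 2.36, with an interval from 1.25 to 4.76 that spans the 2-fold line. Bub3 lies on chromosome 7 from 131560222 to 131571895.

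Aurkb, Birc5, Incenp and Cdca8 encode the 4 subunits of the chromosomal passenger complex, which corrects faulty attachments of chromosomes. Aurkb, its kinase, had 9 Control and 90 CKO reads and was 6.67-fold higher, with an interval from 3.36 to 15.1. Incenp, its scaffold, had 146 and 308 reads and was 1.41-fold higher, with an interval from 1.15 to 1.72. These intervals do not overlap, but Aurkb passed the filter only through the CKO library and rests on its 9 Control reads. Birc5, which encodes survivin, had 34 and 152 reads and a fold of 2.98. Cdca8, which encodes borealin, had 38 and 130 reads and a fold of 2.28. Both lay between the kinase and the scaffold.

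Among the centromere and kinetochore genes are the 4 subunit genes of the Ndc80 complex. Ndc80 and Nuf2 form the end of this rod that grips the microtubule, and Spc24 and Spc25 the end that sits on the chromosome. Ndc80 had 9 Control and 85 CKO reads and was 6.30-fold higher, with an interval from 3.17 to 14.2. Nuf2 had 9 and 114 reads and was 8.44-fold higher, with an interval from 4.30 to 18.9. Spc24 had 75 and 173 reads and was 1.54-fold higher, with an interval from 1.17 to 2.04. Spc25 lies on chromosome 2 from 69193895 to 69206194. Its 385 and 876 reads gave a fold of 1.52, with an interval from 1.34 to 1.71. Spc24 and Spc25 were thus alike in fold, while Ndc80 and Nuf2 passed the filter only through the CKO library and had to be high there to be counted. Cenpf, a large protein of the outer kinetochore encoded on chromosome 1 from 189640606 to 189688086, had 14 and 215 reads, at a log2 ratio of 3.27. This was the highest log2 ratio of the 39 genes with the pseudocount of 1, while with a pseudocount of 0.1 or the column minimum as the floor that of Kif2c was the highest, at 3.39 under each. With a pseudocount of 10 or the values as deposited it was that of Mki67, at 2.87 and 3.17. Cenpe, a kinetochore kinesin, had 92 and 216 reads and a fold of 1.57. Cenpa, the histone variant that marks centromeres, had 37 and 115 reads and a fold of 2.07, just past the threshold, with an interval from 1.42 to 3.09.

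**Figure D2:**
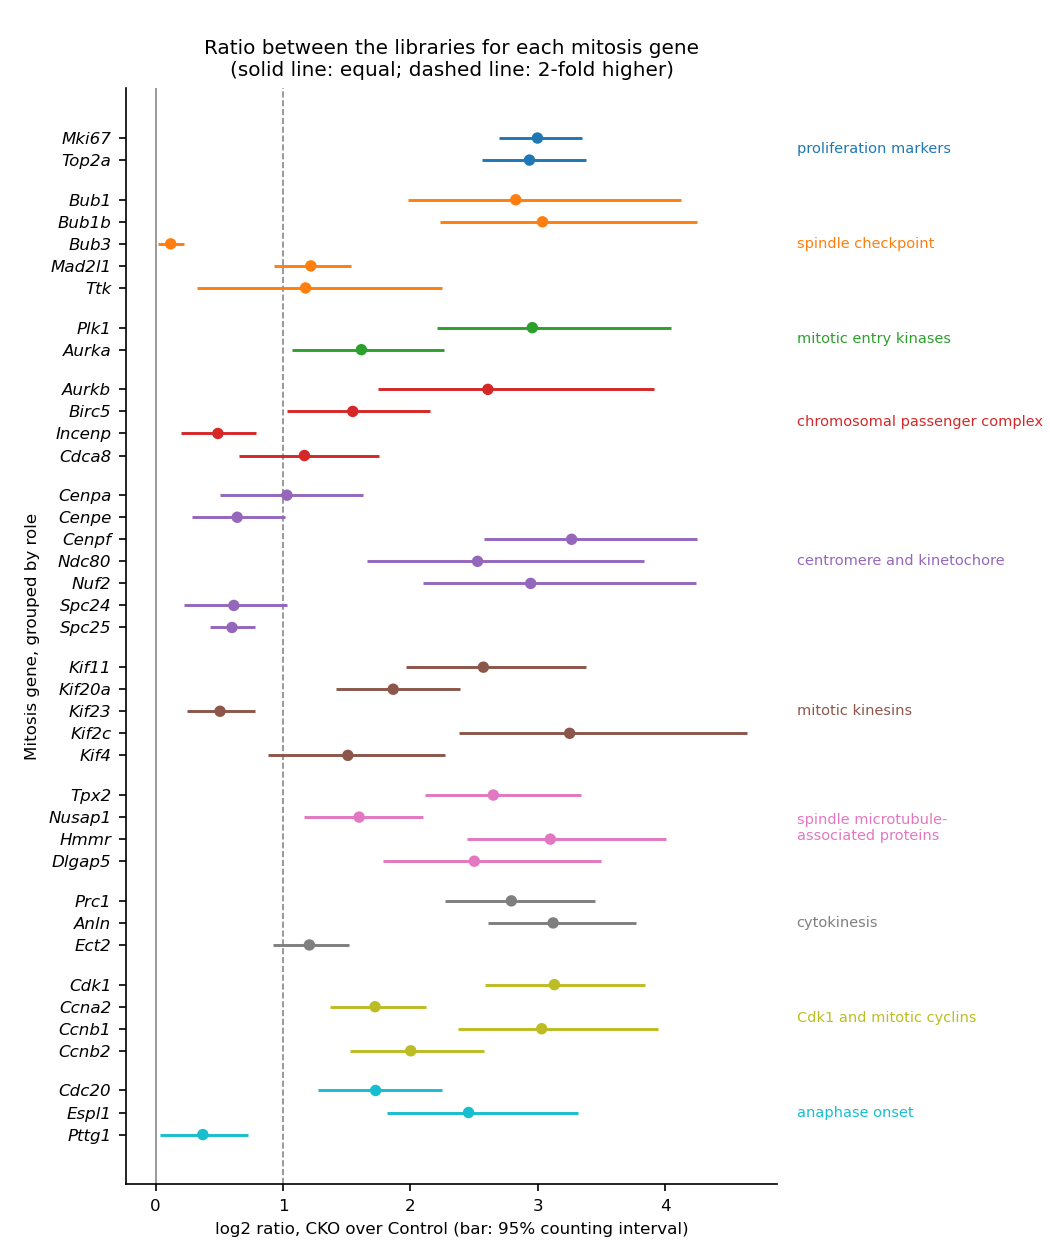
The log2 ratio of CKO over Control for the 39 mitosis genes (points) with 95% counting intervals (bars), grouped by role and with 1 library per group. Within the checkpoint, passenger complex and kinetochore groups, Bub3, Incenp, Spc24 and Spc25 lie short of the 2-fold line while Bub1b, with 10 Control reads, lies past it; Bub1, Aurkb, Ndc80 and Nuf2 also lie past it, but each had 9 Control reads and passed the filter only through the CKO library.

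Of the 5 mitotic kinesins with reads, Kif2c, which takes microtubules apart at centromeres, had 8 Control and 127 CKO reads and was 10.6-fold higher, with an interval that starts at 5.21. Kif11, the motor that pushes the spindle poles apart, had 20 and 186 reads and was 6.20-fold higher. Kif4, a chromosome-bound kinesin, had 23 and 101 reads and a fold of 2.93. These 3 motors were all high in the CKO library, with Kif2c kept only through it. The kinesin-6 motors of the central spindle were less alike. Kif20a had 43 and 239 reads and a fold of 3.71, with an interval from 2.67 to 5.25. Kif23 had 172 and 367 reads and a fold of 1.42, with an interval from 1.18 to 1.72. Kif20b, the remaining kinesin-6 gene and not among the 40, had 952 and 330 reads, a fold of 0.231 with an interval from 0.203 to 0.262. The order of the family was thus Kif20a, Kif23 and Kif20b, with intervals that do not overlap, and Kif20b was the one that was low in the CKO library.

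The 4 spindle microtubule-associated genes were all at least 2-fold higher. Hmmr, a spindle pole protein gene, had 16 Control and 217 CKO reads and was 9.04-fold higher. Tpx2, the activator of Aurka on the spindle, had 26 and 253 reads and a fold of 6.49. Dlgap5, which stabilises fibres at kinetochores, had 14 and 126 reads and a fold of 6. The smallest difference of this group was that of Nusap1, a microtubule-bundling protein gene with 48 and 221 reads and a fold of 3.07. For cytokinesis, Anln, a scaffold of the contractile ring, had 28 and 377 reads and was 8.98-fold higher, with an interval from 6.11 to 13.7. Prc1, which bundles the midzone microtubules, had 28 and 300 reads and a fold of 7.14. Ect2, the exchange factor that activates RhoA at the cell equator, had 123 and 428 reads and a fold of 2.32, with an interval from 1.89 to 2.86. Ect2 was thus the highest of these genes in Control reads and the lowest in fold, and its interval lies below those of Anln and Prc1.

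At anaphase onset, Cdc20, the activator of the anaphase-promoting complex, had 44 Control and 222 CKO reads and was 3.36-fold higher. Espl1, the gene of separase, which cuts cohesin, had 18 and 155 reads and was 5.74-fold higher, with an interval from 3.51 to 9.94. Pttg1, the gene of securin, which holds separase inactive, lies on chromosome 11 from 43420250 to 43426251, and it had 107 and 208 reads. Its fold was 1.30, with an interval from 1.02 to 1.65, so separase mRNA was high in the CKO library and that of its inhibitor nearly level.

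The 7 genes under 2-fold, Bub3, Pttg1, Incenp, Kif23, Spc25, Spc24 and Cenpe, had 75 to 1270 Control reads, and the 32 others had 8 to 123. Divided by the length of the principal GENCODE M21 transcript, the Control level of the 7 ran from 11.6 to 573 reads per kb with a median of 54.9, and that of the 32 from 1.26 to 35.9 with a median of 6.02. On the scale of differences, scaled CKO minus Control reads per kb, the groups were closer: the median gain was 29.5 reads per kb for the 7 genes and 32.2 for the 32. Spc25 had the largest gain of the 39 genes, 166.7 reads per kb with a counting standard error of 23.3, followed by Ccnb2 with 74.7 and an error of 7.67. Bub3 ranked 10 with 49.0 and an error of 21.1. At the other end, Kif23 ranked 31 with 21.4, Incenp 33 with 18.3 and Cenpe 38 with 6.57. The genes with a small fold thus had gains from the top to near the bottom of the 39, while 6 of the 7 had a higher Control level per kb than any of the 32. The contrast in Control level is partly built in, because Control reads are the denominator of the fold that split the groups. The 32 also hold Bub1, Aurkb, Ndc80, Nuf2 and Kif2c, which passed the filter only through the CKO library. The gains and ranks of single genes depend on the scaling and hold only for the one used. When both libraries were scaled to equal totals, the median gains were 58.0 for the 7 genes and 46.0 for the 32. The log2 ratio of Bub3 then rose from 0.12 to 0.54, so its gain was larger than the one given here. Higher levels went with smaller ratios over all genes too. Spearman's rho between mean level and log2 ratio was -0.30 across the 39 genes and -0.31 across the 17469, a description across genes of the same pair of libraries. Of 24 mitosis genes with a mean under 100 reads, 23 were at least 2-fold higher, beside 27.6% of all genes at that level. These 24 include the 5 genes kept only through the CKO library, which had to be high there to be counted. Over all genes, 604 of 841 with fewer than 10 Control reads were at least 2-fold higher, so the 27.6% holds such genes too. Between 100 and 400 reads, 9 of 13 mitosis genes were at least 2-fold higher, beside 18.2% of all genes, and from 400 reads upward 0 of 2, beside 4.36%.

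**Figure D3:**
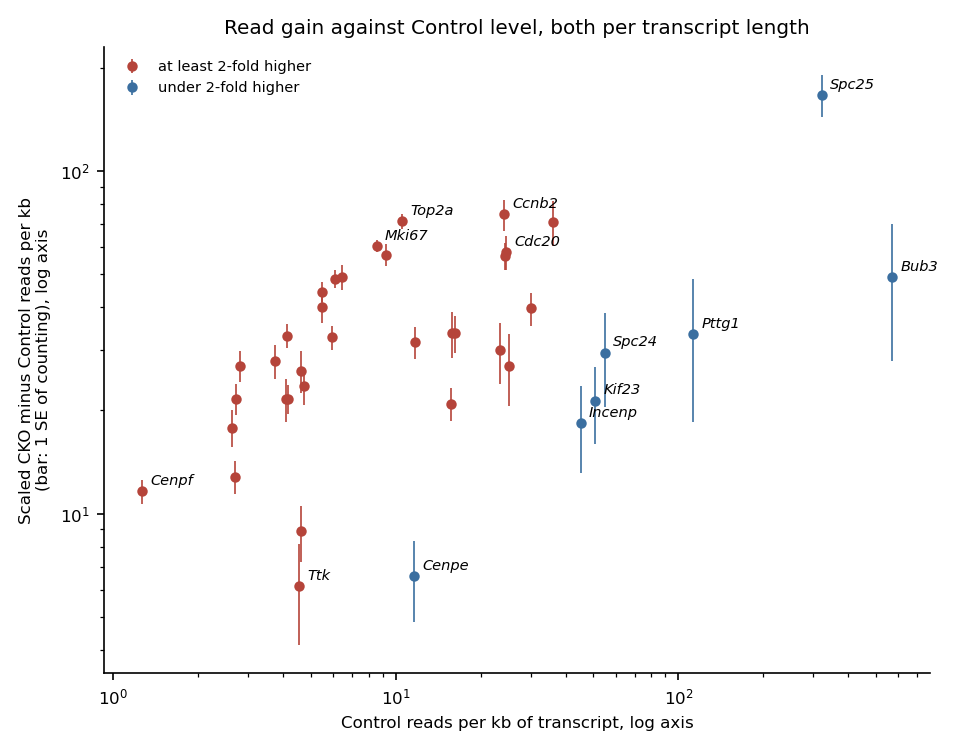
Scaled CKO minus Control reads per kb of transcript against Control reads per kb, both on log axes, for the 39 mitosis genes; bars are 1 counting standard error and each group has 1 library. Of the 7 genes under 2-fold (blue), 6 lie to the right of the 32 genes at least 2-fold higher (red) and Cenpe, at 11.6 Control reads per kb, lies among them; the gains of the 7 run from 6.57 to 166.7.

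Beyond the 40, lists of other pathway genes held 129 genes with reads, of which 49 were at least 2-fold higher and 1, Kif20b, at least 2-fold lower, with a median log2 ratio of 0.51. The share at least 2-fold higher was 38.0%, beside the 13.4% of all genes. Of the 49, 10 had fewer than 10 Control reads and so had to be high in the CKO library to be counted: Cenpi, Ska1, Ska3, Sgo1, Kif14, Kif18b, Fam83d, Stil, Cep55 and Esco2. Without these, 39 of 119 genes, or 32.8%, were at least 2-fold higher, beside 10.4% of all genes under the same restriction, and the median was 0.39. Outer kinetochore and checkpoint partners were at least 2-fold higher in 11 of 19 genes, or 57.9%, with a median of 1.39, and in 8 of 16 with 10 Control reads or more. Knl1, the platform on which the checkpoint assembles, had 25 Control and 140 CKO reads, at a log2 ratio of 1.86. Sgo2a, a protector of centromeric cohesion, had 14 and 108 reads, at a log2 ratio of 2.28. Ska1, a subunit of a microtubule-coupling complex, had only 3 and 28 reads, a fold of 6.22 with an interval from 1.92 to 32.0. Zwint, a Knl1 partner, had 3431 and 4773 reads and the lowest log2 ratio of this list, -0.11, so that the list ran from level to high in the CKO library. For inner kinetochore and CENP-A loading genes the count was 7 of 18, or 38.9%, and the median 0.83, from -0.68 for Cenpx, with 1404 and 1313 reads, to 2.46 for Cenpi, with 8 and 73 reads, which was kept only through the CKO library.

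Other mitotic kinesins were at least 2-fold higher in 5 of 6 genes, and the sixth was Kif20b. The highest was Kif18b with 4 Control and 45 CKO reads, at a log2 ratio of 2.63, but it and Kif14, with 7 and 32, passed the filter only through the CKO library, which leaves 3 of 4. Spindle and centrosome genes reached 12 of 26, or 46.2%, with a median of 0.56, and 9 of 23 with 10 Control reads or more. Stil, needed to build new centrioles, had 2 and 56 reads, a fold of 18.7 with an interval from 4.93 to 158. Cep55, a midbody protein gene, had 7 and 105 reads, at a log2 ratio of 3.15, and Aspm, a spindle pole protein gene, had 20 and 214 reads, at a log2 ratio of 2.77. Of these 3 only Aspm had 10 Control reads or more, and Stil and Cep55 had to be high in the CKO library to be counted. Ckap2, with 15 and 197 reads, and Ckap2l, with 13 and 151, were higher than Aspm, at log2 ratios of 3.05 and 2.86. Cenpj, a centriole gene, was the lowest of the list with 286 and 367 reads, at a log2 ratio of -0.22. Cytokinesis partners reached 2 of 7, or 28.6% beside 13.4% of all genes, Arhgap11a, with 46 and 270 reads, at a log2 ratio of 1.95, and Racgap1. Racgap1, which pairs with Kif23 in centralspindlin, had 64 and 264 reads and a fold of 2.75, with an interval from 2.09 to 3.67 that lies above that of Kif23. Cit, the gene of citron kinase, was the lowest with 352 and 353 reads, at a log2 ratio of -0.58, and Rhoa, with 9011 and 11689 reads, was at -0.21.

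Condensin, cohesin and the anaphase-promoting complex are large complexes that also act outside mitosis. Condensin genes were at least 2-fold higher in 4 of 8, or 50%, and had a median log2 ratio of 0.996, with Ncaph at 21 Control and 141 CKO reads, at a log2 ratio of 2.11, and Ncaph2, a condensin II subunit, at 3746 and 4198 reads, at a log2 ratio of -0.42. Cohesin genes were at least 2-fold higher in 2 of 12, or 16.7%, a share near the 13.4% of all genes, with a median of 0.15. These were Esco2, an acetyltransferase of cohesin in S phase, with 8 and 108 reads, at a log2 ratio of 3.02 and kept only through the CKO library, and Cdca5, the gene of sororin, with 10 and 60 reads, at a log2 ratio of 1.90. Rad21, the subunit that separase cuts, was the lowest at 7105 and 8127 reads, at a log2 ratio of -0.39. In the anaphase-promoting complex list 1 of 18 genes, or 5.56%, was at least 2-fold higher, beside 13.4% of all genes, and the median was -0.03. The cohesin list and this one had medians of 1829.5 and 1116 Control reads. Of all genes with a mean of 400 reads or more, 4.36% were at least 2-fold higher. The gene past 2-fold in the anaphase-promoting complex list was Ube2c, its ubiquitin-conjugating enzyme, with 12 and 143 reads, at a log2 ratio of 2.89. Fzr1, the paralog of Cdc20 that acts in late mitosis and G1, had 637 and 1117 reads, at a log2 ratio of 0.22, so the 2 activators differed in fold. Anapc13, a small subunit, was the lowest with 2113 and 1697 reads, at a log2 ratio of -0.90. Entry regulators and their transcription factors reached 5 of 15, or 33.3%. Foxm1, a transcription factor of late cell cycle genes, had 48 and 247 reads, at a log2 ratio of 1.76, while Mybl2, its B-Myb partner, had 51 and 108 reads, at a log2 ratio of 0.49. Melk, a kinase gene, was the highest with 10 and 116 reads, at a log2 ratio of 2.83, and Arpp19, an inhibitor of mitotic phosphatase, the lowest with 4069 and 3920 reads and -0.64.

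**Figure D4:**
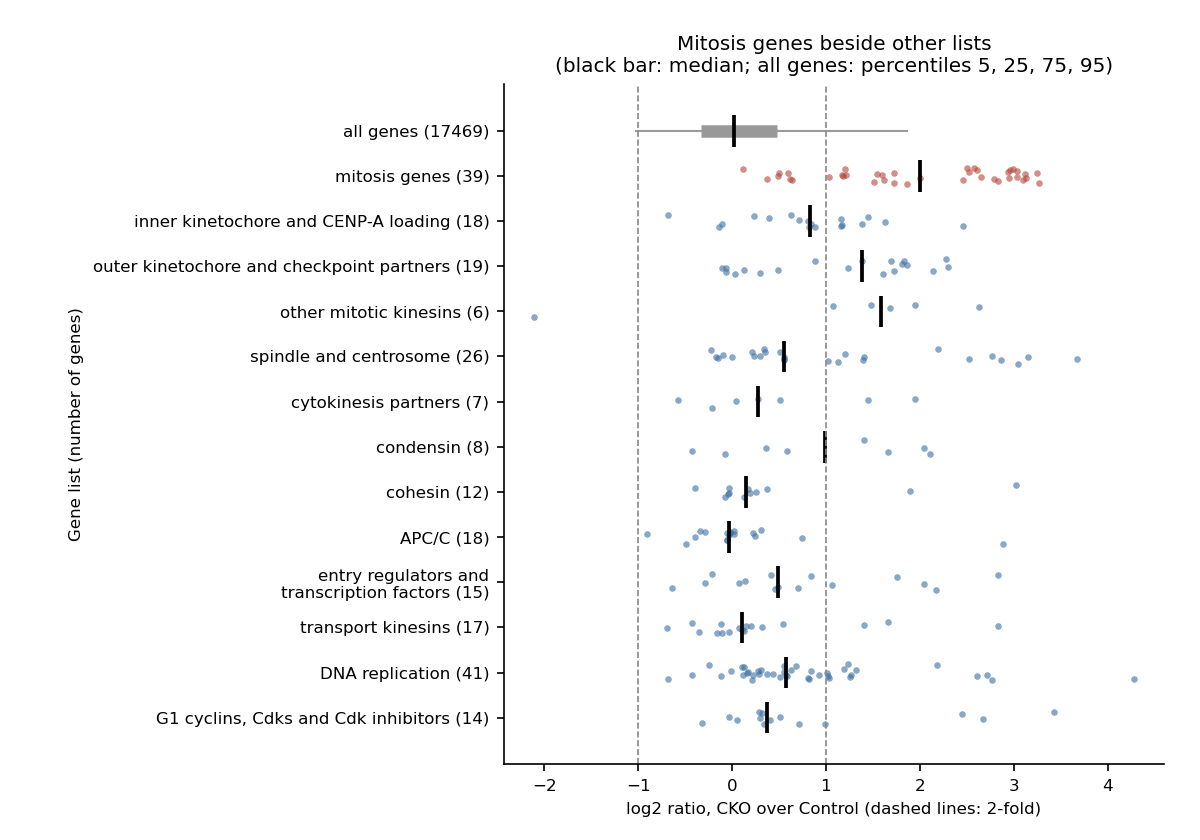
The log2 ratio of CKO over Control for the 39 mitosis genes (red), the other pathway lists and the comparison lists (blue), each point 1 gene, beside percentiles of the 17469 genes that passed the filter (grey); black bars are medians. The median was 2.003 for the mitosis genes, 1.39 for outer kinetochore partners, -0.03 for the anaphase-promoting complex and 0.02 for all genes.

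Kinesins that carry cargo in resting cells were taken as a comparison within the motor family. Of 17 transport kinesins 3 were at least 2-fold higher, Kif1a, Kif21b and Kif5c, and the median log2 ratio was 0.10. This share, 17.6%, is near the 13.4% of all genes. The list had a median of 1100 Control reads, and of all genes with a mean of 400 reads or more 4.36% were at least 2-fold higher. Kif1a had 21 Control and 233 CKO reads, at a log2 ratio of 2.83, and Kif21a was the lowest with 3816 and 3530 reads and -0.70. DNA replication genes, which act earlier in the cycle, were at least 2-fold higher in 13 of 41, or 31.7%, with a median of 0.57. Cdc6, which loads the replicative helicase, had 2 and 86 reads, a fold of 28.7 with an interval from 7.70 to 241, and was kept only through the CKO library. Rrm2, a ribonucleotide reductase subunit, had 41 and 429 reads, at a log2 ratio of 2.77. Mcm10, which helps to start replication forks, had 282 and 314 reads, at a log2 ratio of -0.43. The replication list was therefore mixed, with some genes as high as the mitotic ones and others level. Of 14 cyclins, Cdks and Cdk inhibitors of G1, 3, or 21.4%, were at least 2-fold higher beside 13.4% of all genes, and the median was 0.37. Cdkn1a, the gene of the Cdk inhibitor p21, had 167 and 2711 reads, at a log2 ratio of 3.43, above that of every one of the 39 mitosis genes. Ccne1 had 7 and 75 reads, at a log2 ratio of 2.67, and Ccne2 14 and 121 reads and 2.44. Ccnd1, the D-type cyclin with the most reads, had 13010 and 15586 and a log2 ratio of -0.32. An inhibitor of cell cycle progression and Ccne2 were thus both high in the CKO library, while Ccne1 passed the filter only there.

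Of the marker lists, those of injured tubules, leukocytes and stroma had, like the mitosis genes, a median more than 2-fold higher in the CKO library. Proximal tubule markers checked the tissue: 7 of 7 had reads, and they held 405203 Control and 340323 CKO reads in all. After scaling, their summed fold was 0.56 and their median log2 ratio -0.62, with 1 of the 7 higher in the CKO library. Of these markers 2 were at least 2-fold lower, beside 5.35% of all genes. The most abundant was Slc34a1 with 147064 and 98124 reads. Injured tubule markers were at least 2-fold higher in 5 of 5 genes with a row, of 6 listed, beside 13.4% of all genes. They held 17351 and 444104 reads in all. Spp1 was the most abundant with 15360 and 412220 reads. Also on this list, and chosen after their values were seen, were Lcn2, with 28 and 3797 reads and a fold of 90.4, and Havcr1, with 1639 and 21332 reads and a fold of 8.68. Leukocyte markers were at least 2-fold higher in 7 of 9, and in 5 of 6 with 10 Control reads or more. The shares of all genes were 13.4% and, under this restriction, 10.4%. The leukocyte markers held 974 and 13286 reads in all, and Lyz2 was the most abundant with 518 and 9836 reads. Of 13 listed leukocyte markers 9 had a row, and the floor used leaves every gene with a row at least 1 read. Cd3e, with 6 and 33 reads, S100a8, with 7 and 19, and Ncr1, with 15 and 16, were few in both libraries. Stromal markers were at least 2-fold higher in 3 of 4, beside 13.4% of all genes. They held 3257 and 11246 reads in all, and Pdgfrb, which did not pass 2-fold, was the most abundant in both libraries with 1513 and 3170 reads. Of 7 listed erythroid precursor markers 6 had a row, and 0 of these passed 2-fold. They held 11882 and 17824 reads in all, most from Hbb-bs with 6084 and 9054 reads, and Klf1 was low with 16 and 25. In 4 endothelial markers 0 passed 2-fold, with 7231 and 9386 reads in all and Kdr the most abundant in the Control library at 2528 and 2390. Likewise 0 of 4 podocyte markers passed, with 7455 and 10267 reads in all and Podxl the most abundant at 4782 and 7595. Of 6 markers of other tubule segments 0 passed, with 142842 and 267671 reads and Umod the most abundant at 90047 and 187056. Their summed fold was 1.25, with an interval from 1.24 to 1.26, and 4 of the 6 were higher in the CKO library. Of all genes 13.4% were at least 2-fold higher, and of those with a mean of 400 reads or more 4.36%. A count of 0 in lists of 4 to 6 genes is near these shares. Which cells held the mitotic mRNAs, and the part of leukocytes, stroma or injured tubules in their difference, was not tested.

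The direction of the mitosis genes did not turn under any setting, but most settings could not have turned it. In each of the 12 settings that give a value for single genes, the setting used included, every mitosis gene kept had a log2 ratio above 0. The lowest was that of Bub3 at 0.10 with the column minimum as the floor. Filters and thresholds leave single ratios as they are, and a pseudocount cannot change their sign. The other scalings used larger CKO factors, 0.681, 0.692 and 0.891, and the deposited values were not scaled down. Of the alternatives, only the column minimum as floor, with a factor of 0.658, could have turned a gene. The threshold of 4-fold left 20 genes, the one alternative that moved their count by over 1.5 times. Making the totals equal shifted the median log2 ratio of all genes to 0.44, and using the values as deposited shifted it to 0.57, so ratios under these are read against those shifts; the median of the mitosis genes was 2.42 and 1.83. In 8 of the 39 genes an exon overlaps an exon of a gene on the opposite strand, among them Cdc20 with Elovl1 and Ccna2 with Exosc9, and 3, Kif4, Ccnb1 and Ccnb2, have a pseudogene named after them. The libraries were made with a stranded kit, but whether reads were counted by strand is not given in the sources used here, and the part of such reads was not tested.

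**Figure D5:**
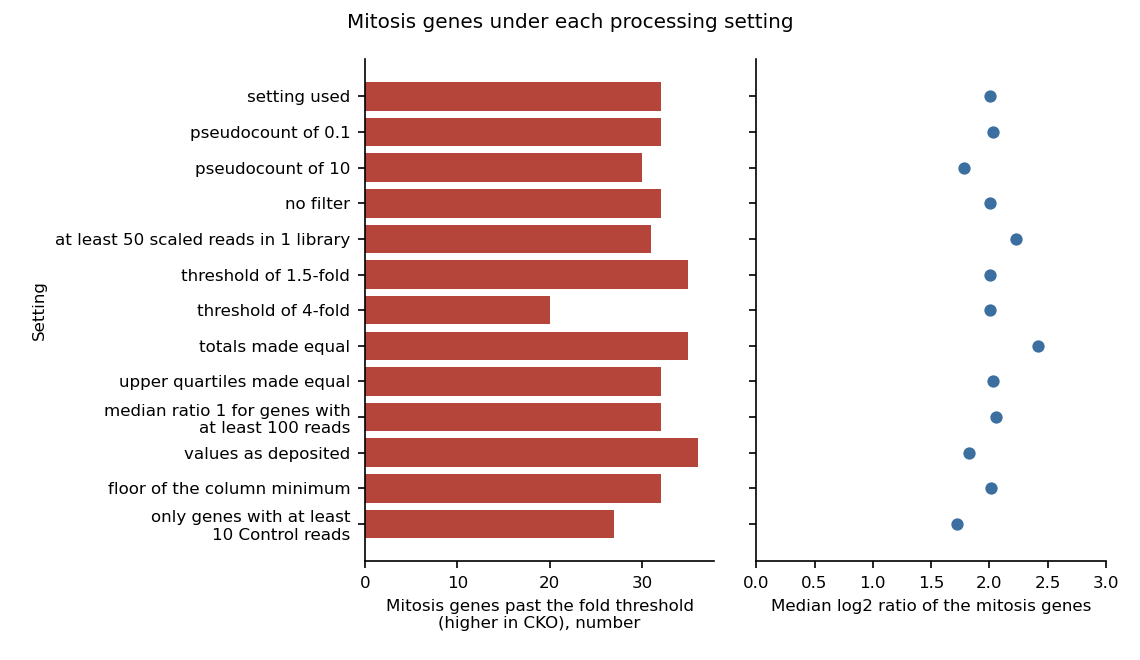
Number of mitosis genes past the fold threshold and higher in the CKO library (left) and their median log2 ratio (right) under the setting used and each alternative, from 1 library per group; the last setting was chosen after the values were seen. The number ran from 20 at a threshold of 4-fold to 36 with the values as deposited, and the median from 1.73 to 2.42.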

How the data were processed

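Whole-kidney RNA was sequenced in 2 libraries, 1 Control and 1 CKO. The submitters' processing notes name STAR 2.7.3a, HTSeq, DESeq2, Cufflinks 2.2.1, FastQC, edgeR and the build mm10. The score values were deposited by the authors as whole numbers named normalized counts, made by counting aligned reads and normalizing them, and follow no standard unit. Reads were the value minus a floor, the column minimum minus 1. CKO reads were scaled by 0.667, and a gene was kept if it reached 10 scaled reads in either library. The threshold was 2-fold. Intervals are 95% Clopper-Pearson intervals of the ratio and cover counting error only, since reads are not independent molecules. The depth was 38851231 Control and 43588721 CKO reads. Lists are described by counts and medians beside those of all genes.

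The members and lists were chosen with earlier results of these data known. All 40 members may be named; of other lists, the 3 highest and 3 lowest log2 ratios, partners of members, the most abundant markers, those near 0 and pathway genes with fewer than 10 Control reads were named. Exceptions are said to be chosen after their values were seen, apart from Aspm, Ckap2l, Foxm1, Mybl2 and Fzr1. These are not among the 3 highest or 3 lowest of their lists and were also named with their values known. For 1 comparison list, 1 result under this rule is not reported here. Of the listed genes, 15 have no row, Kif15 among them, and were not analysed here, except Septin7 and Septin9, which stand under their older symbols Sept7 and Sept9. Alternatives were a pseudocount of 0.1 or 10, a filter at 50 scaled reads or none, a threshold of 1.5-fold or 4-fold, 3 other scalings, the values as deposited, and the column minimum as floor. Transcript lengths and gene coordinates came from GENCODE M21 (GRCm38) and promoters from RefSeq (GRCm38.p6). The steps were run on simulated counts with counting error only and with the same floors added. This run could therefore not test the inferred constants. Python 3.11.15, numpy 2.4.6, pandas 2.3.3, scipy 1.17.1 and matplotlib 3.10.9 were used.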

Additional observations from a re-analysis of the deposited data

How the results depend on the processing

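Among the 162 single genes followed, none that passed 2-fold changed sign under any setting run. Some under 2-fold did with the values as deposited, such as Anapc16, from -0.49 to 0.11, and the proximal tubule marker Aqp1, from -0.47 to 0.11. Others did not, such as Anapc13, from -0.90 to -0.30. The number of mitosis genes at least 2-fold higher lay between 27 and 36 except at a threshold of 4-fold, where it was 20, and 0 were lower under each setting. Their median log2 ratio lay between 1.73 and 2.42. The alternatives restricted to genes with at least 10 Control reads, or without Bub3, were chosen after the data were seen. With 10 Control reads or more, 39 other pathway genes were at least 2-fold higher in place of 49.

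With the totals made equal, the summed reads of the mitosis genes were 3.19-fold higher, all genes at least 2-fold higher or lower numbered 3870 and 437, and DNA replication and G1 genes at least 2-fold higher numbered 20 and 5. With the values as deposited these were 2.97-fold, 3574 and 131, and 24 and 6. Without Bub3 the summed reads were 3.19-fold higher. At 1.5-fold, 3801 genes were higher and 2423 lower; 20 DNA replication and 5 G1 genes were higher, and 4 other pathway genes, 1 transport kinesin and 1 DNA replication gene were lower. At 4-fold, 749 genes were higher and 166 lower, with 19 other pathway genes, 5 DNA replication genes and 1 transport kinesin higher. With at least 50 scaled reads, 617 genes were lower. Other thresholds and filters change these counts by construction; for the scalings, the cause was not tested. Of these genes, 87 moved outside their counting interval when totals were equal and 105 when the values stayed as deposited. Genes with few Control reads, such as Kif2c with 8, have the widest intervals.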

Other observations

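In level per kb of transcript, Bub3, Spc25 and Pttg1 ranked 1, 2 and 3 in both libraries, with 573, 322 and 113 reads per kb in the Control library and 622, 489 and 146 scaled reads per kb in the CKO library. Mki67 went from rank 21 to rank 12 and Top2a from rank 19 to rank 8, while Cenpe went from rank 18 to rank 35. Cenpf was at rank 39 and rank 38. These genes were chosen after their values were seen.

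With 1 library per group, none of these differences can be set against the spread between mice, and the intervals hold for counting alone. The reads rest on an inferred constant per column. The mRNA of Zc3h12b gives no check of the labels at this depth, the ages differ between the methods sections, and the lengths follow the annotated transcript rather than the one expressed in kidney.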
